A study of Mus musculus with 4 samples.

Results

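A20, its ABIN adaptors, the other proteins of the A20 complex and 3 further deubiquitinases act as brakes on NFκB signalling, and their transcripts were followed in mouse primary myotubes exposed to EDA-A2, a ligand of the TNF receptor family member EDA2R. The genes were taken by name, as a set of 9 of the 53647 genes in the count tables: Tnfaip3, Tnip1, Tnip2, Tax1bp1, Rnf11, Itch, Cyld, Otud7b and Otulin. All 9 were expressed well enough to enter the test, which covered 15173 genes. Wild-type myoblasts came from the limb muscles of pups 2 to 3 days old and were made to fuse in horse serum. One group of 2 libraries was given EDA-A2 at 250 ng/mL for 24 h, and the Control group of 2 libraries was not. All cells were harvested 72 h after differentiation began, and polyadenylated RNA was sequenced from stranded libraries. The labels do not say what the Control cells received or whether replicates were separate cultures or litters, so p-values measure the spread between these libraries, which may be technical.

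Receptors of the TNF family signal by building ubiquitin chains on adaptor proteins, and the kinases that activate NFκB assemble on those chains. A20 and the deubiquitinases CYLD, Cezanne and OTULIN take such chains apart or keep them from forming, while ABIN proteins bind the chains and bring A20 to them. Tnfaip3 is a textbook NFκB target, so the pathway makes its own inhibitor, and loss of A20, ABIN-1 or OTULIN in mice leads to inflammation.

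Depth was nearly equal, with 29444155 to 29746863 counts on genes per library. Of the marker lists, that of muscle had the highest level, with 18000 to 24400 CPM (counts scaled to a fixed library total) summed over 9 genes. The macrophage list reached 8.69 to 13.8 CPM over 7 genes, with Ptprc, Adgre1 and Lyz2 at 3 counts or fewer in every library. Other genes of that list were detected. Mrc1 held 211 and 168 raw counts in Control and 288 and 203 in EDA-A2. Cd68 held 54 and 63 against 81 and 69, and Itgam 18 and 18 against 39 and 32. Endothelial markers summed to 0.996 to 1.23 CPM, with Emcn at 0. Cdh5 of that list held 14 and 21 raw counts in Control and 22 and 25 in EDA-A2. T cell markers summed to at most 0.409 CPM, with Cd4 and Cd8a at 0 and Cd3g at 7 and 12 against 1 and 5. Fibroblast markers summed to 1680 and 1740 CPM in Control and 1600 and 1620 CPM in EDA-A2, with Lum and Thy1 at 0. Col3a1 of that list held 38820 and 45682 raw counts in Control and 43050 and 42518 in EDA-A2. Markers of dividing cells summed to 655 and 779 CPM in Control and 727 and 716 CPM in EDA-A2. No gene of these 5 lists that entered the test was called. The muscle list was lower after EDA-A2 (24400 and 23300 against 18000 and 18000 CPM), and 3 of its 9 genes fell. The myoblast list summed to 341 and 305 against 302 and 295 CPM, and of its 5 genes Cdh15 fell and Vcam1 rose. The part of these marker changes in the results below was not tested. In bulk RNA, fewer cells of a type and less RNA per cell cannot be told apart.

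The DNA upstream of 4 of the genes is shown for its matches to the κB consensus, the sequence that NFκB dimers bind. A match lay before a RefSeq start of all 3 genes called higher below. There was none before that of Tnip2, the relative of Tnip1, or in a further window of Tnfaip3. Tax1bp1, which was not called, held a match after a RefSeq start. Each run holds the 250 bases before a RefSeq transcription start, 5′ to 3′ on the strand of the gene, and capitals mark matches to the consensus on either strand. The consensus of 10 bases was read as 3 Gs, a purine, any base, A or T, 2 pyrimidines and 2 Cs, and overlapping matches were merged. The RefSeq table is of GRCm38.p6, and each run was placed on GRCm39 by exact match. They lie at chr10:18891159-18891408, minus strand, for Tnfaip3, at chr11:54853767-54854016, minus strand, for Tnip1, at chr5:34671324-34671573, minus strand, for Tnip2 and at chr8:89423406-89423655, plus strand, for Cyld.
Tnfaip3: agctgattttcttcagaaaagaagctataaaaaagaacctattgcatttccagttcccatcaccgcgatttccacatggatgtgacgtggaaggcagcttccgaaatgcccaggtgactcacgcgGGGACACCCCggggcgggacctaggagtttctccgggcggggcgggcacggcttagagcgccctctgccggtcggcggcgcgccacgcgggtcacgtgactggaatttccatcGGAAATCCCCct
Tnip1: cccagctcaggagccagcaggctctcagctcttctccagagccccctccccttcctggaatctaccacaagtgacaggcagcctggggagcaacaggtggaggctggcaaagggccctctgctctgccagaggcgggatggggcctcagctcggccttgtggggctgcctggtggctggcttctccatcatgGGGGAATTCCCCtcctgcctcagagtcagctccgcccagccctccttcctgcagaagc
Cyld: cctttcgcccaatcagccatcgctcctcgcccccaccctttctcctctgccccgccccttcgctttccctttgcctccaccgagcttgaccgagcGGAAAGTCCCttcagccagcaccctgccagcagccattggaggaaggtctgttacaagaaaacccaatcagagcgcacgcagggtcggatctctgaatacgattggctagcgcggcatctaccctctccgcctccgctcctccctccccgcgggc
Tnip2: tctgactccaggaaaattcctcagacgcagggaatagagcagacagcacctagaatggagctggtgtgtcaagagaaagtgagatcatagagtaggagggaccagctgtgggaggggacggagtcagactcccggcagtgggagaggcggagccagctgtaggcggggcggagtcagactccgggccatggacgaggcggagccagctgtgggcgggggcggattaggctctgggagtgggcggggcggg

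Counted from the start, Tnfaip3 had matches at -125 to -116 and at -12 to -3. Tnip1 had 1 palindromic run of 12 bases at -58 to -47, which holds 4 overlapping matches over both strands. Cyld had 1 match, at -155 to -146. The GENCODE annotation places the outermost start of each of these genes further upstream than RefSeq, by 247 bases for Tnfaip3, 895 for Tnip1 and 188 for Cyld, so by that annotation every match lies within the gene. The Tnfaip3 matches lay upstream of 7 and of 4 of its 8 GENCODE transcripts, and the second lay in an exon of 3. The Tnip1 run lay upstream of 25 of 31 transcripts and in an exon of 5. The Cyld match lay upstream of 33 of 52, in an exon of 4 and across the edge of an exon in 15. RefSeq windows of 300 bases, which add the 50 bases after the start, were matched for 6 of the 9 genes. A further window of Tax1bp1 held a match after its RefSeq start, at 35 to 44, in an intron of 38 of 42 GENCODE transcripts, and a further window of Tnfaip3 held none. The windows of Tnip2 and Otulin held none, and Otud7b, Rnf11 and Itch had no window. Among all 32851 windows of this length in the table, 1480 (4.51%) held a match. Counted by gene, a match was present in 49 of the 275 genes called higher that had a window (17.8%), in 15 of 255 called lower (5.88%) and in 617 of 10346 not called (5.96%). A match is a description of letters and not of binding. The genes were listed as part of NFκB feedback, so their count, 4 of 6, is no independent observation.

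**Figure D1:**
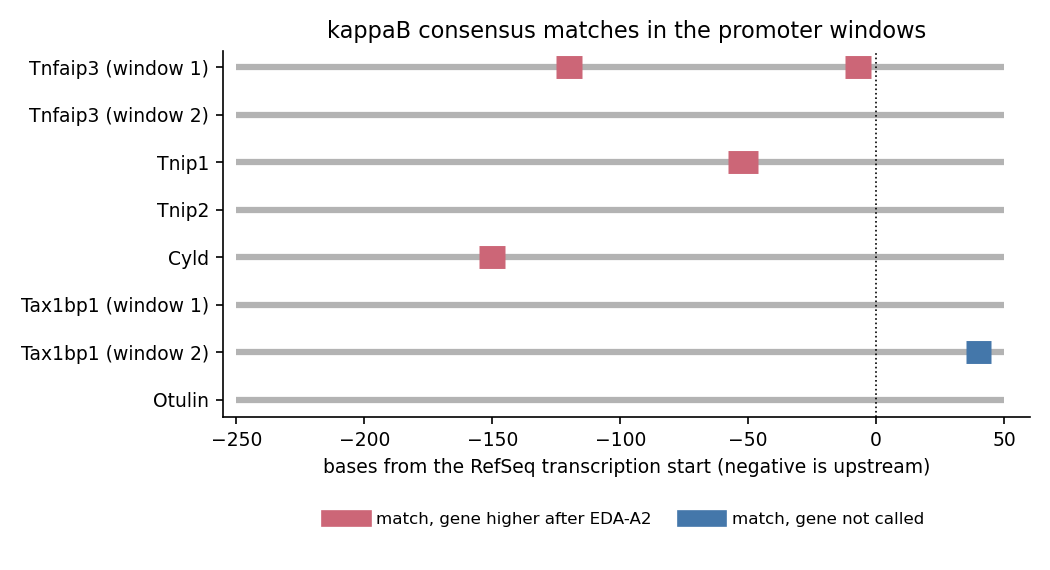
κB consensus matches in the RefSeq promoter windows. The horizontal axis gives bases from the transcription start (negative is upstream), each line is 1 window and each box a match on either strand, coloured by whether the gene was called higher. Tnfaip3 has matches near -125 and -12, Tnip1 near -58 and Cyld near -155, and the windows of Tnip2 and Otulin have none.

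EDA-A2 raised 3 of the 9 transcripts and lowered none. Tnfaip3 and Tnip1, which encode A20 and the adaptor that ties it to ubiquitin chains, rose 2.02-fold and 2.15-fold. Cyld rose 1.26-fold. The remaining 6 genes did not pass the test. Of all genes tested, 4.57% were called in either direction and 2.45% were called higher, by edgeR's quasi-likelihood test at a Benjamini-Hochberg adjusted p under 0.05. The median log2 fold change was 0.10 over the 9 genes and -0.0021 over all genes tested.

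**Figure D2:**
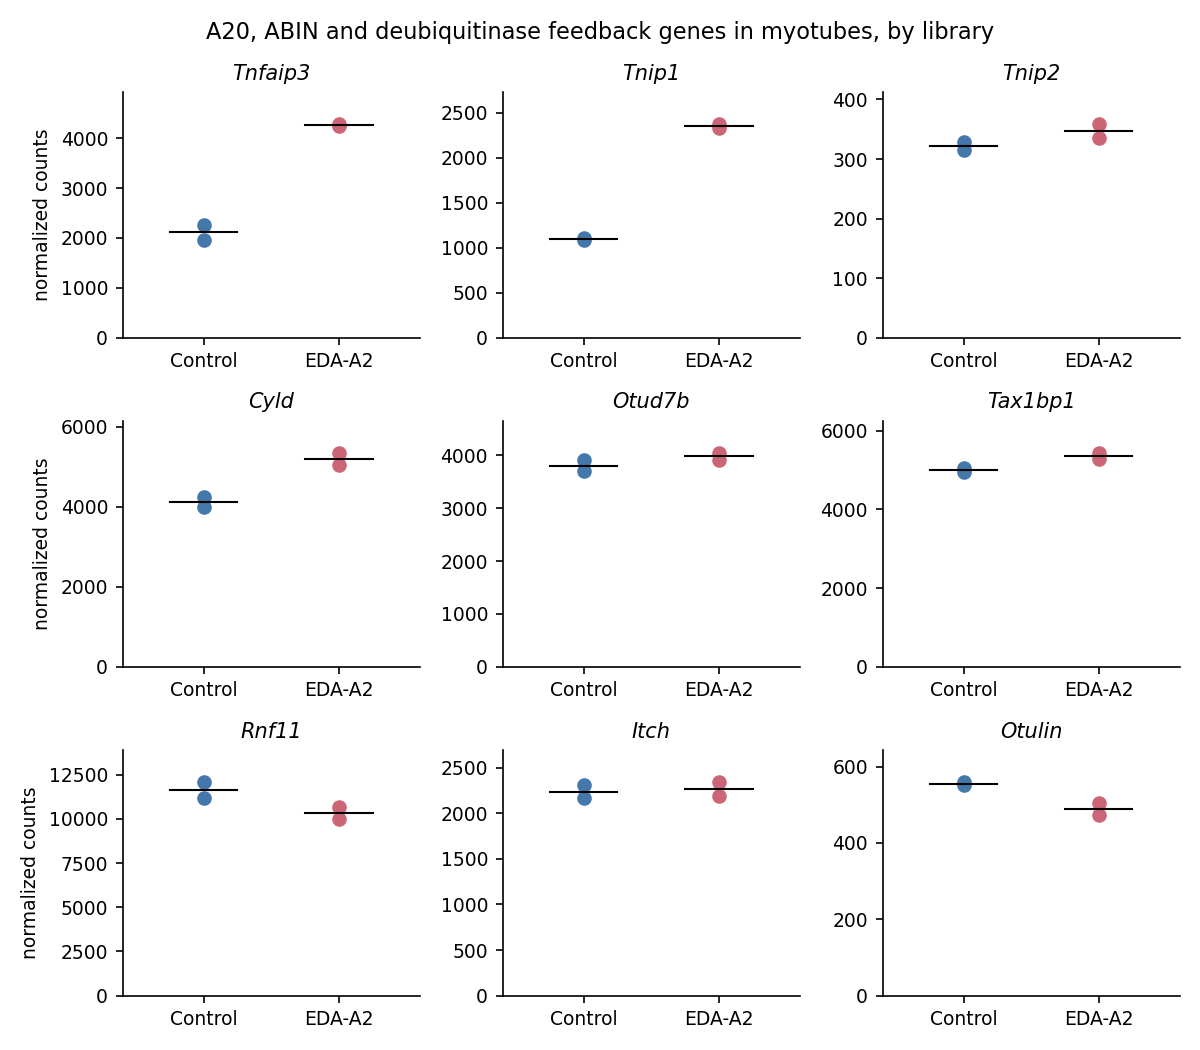
Normalized counts of each of the 9 genes (vertical axes from 0, each with its own scale), with 1 point per library and a line at the mean of the 2 libraries of a group. Both EDA-A2 points lie well above both Control points for Tnfaip3 and Tnip1, and the groups overlap for Itch.

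Tnfaip3 (ENSMUSG00000019850, chr10:18874201-18891405, minus strand of GRCm39) encodes A20, an enzyme with both deubiquitinase and ubiquitin ligase activity. It stood at 2258 and 1966 normalized counts, that is counts scaled to a common library size, in Control replicates 1 and 2, and at 4247 and 4283 in EDA-A2 replicates 1 and 2. Both EDA-A2 libraries were above both Control libraries. The Control pair lay further apart (a coefficient of variation of 9.78%) than the EDA-A2 pair (0.593%). The gap between the groups, 1989 normalized counts, was 6.81 times the larger gap between replicates. The means were 2112 ± 207 and 4265 ± 25.3 (SD, n = 2 each). The log2 fold change was 1.01 with a standard error of 0.08 and a 95% interval of 0.85 to 1.18 (edgeR, adjusted p = 1.46e-06). Among all genes tested it ranked 17 by p-value. The antisense lncRNA Gm67161, not analysed here, overlaps 110 bases (1.13%) of the Tnfaip3 exons.

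Tnip1 (ENSMUSG00000020400, chr11:54796320-54854661, minus strand) encodes ABIN-1, which binds A20 and linear ubiquitin chains. Its 2 Control libraries held 1084 and 1107 normalized counts and its 2 EDA-A2 libraries 2332 and 2375, with means of 1096 ± 16.5 and 2354 ± 30.8 (SD, n = 2 each). Replicates lay close together in both groups, and the gap between the groups was 28.2 times the larger gap between replicates, the widest of the 9 genes by this measure. The log2 fold change was 1.10 with a standard error of 0.07 and a 95% interval of 0.95 to 1.26 (edgeR, adjusted p = 3.21e-07), rank 13 by p-value. The annotated exons of Tnip1 share 2603 bases, 25.3% of their length, with the antisense gene Gpx3, and the strand setting of the counting is not given in the sources used here. Gpx3 itself held 24, 13, 3 and 16 raw counts in the same library order and was not called.

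Tnip2 (ENSMUSG00000059866, chr5:34651772-34671388, minus strand) encodes ABIN-2, a partner of A20 and of the kinase TPL2. It held 315 and 329 normalized counts in Control and 359 and 335 in EDA-A2, with a gap between the groups smaller than that between replicates. Its log2 fold change was 0.11, with a 95% interval of -0.14 to 0.35 (edgeR, adjusted p = 0.751), so the upper bound of the change lies at 1.28-fold. The 2 genes were also compared by normalized counts per kilobase of annotated exon. On that scale Tnip1 made up 61.1% and 60.6% of Tnip1 and Tnip2 together in Control and 74.8% and 76.4% in EDA-A2. The mean ratio of Tnip1 to Tnip2 per kilobase went from 1.55 to 3.10, and it was not tested by itself. Tnip3, the remaining ABIN gene, had no count in either Control library and 6 and 4 raw counts in EDA-A2, which is too few to have entered the test.

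Tax1bp1, Rnf11 and Itch encode the partners that A20 needs to act on its substrates: an adaptor that binds ubiquitin, a small RING finger protein and a HECT ubiquitin ligase. Tax1bp1 (ENSMUSG00000004535, chr6:52690676-52745153, plus strand) held 5059 and 4953 normalized counts in Control and 5436 and 5295 in EDA-A2. Its groups did not overlap, but the log2 fold change was 0.10 with a 95% interval of -0.04 to 0.24 (edgeR, adjusted p = 0.532).

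Rnf11 (ENSMUSG00000028557, chr4:109301926-109341925, minus strand), the gene with the most counts of the 9, went the other way, with 12084.5 and 11166 normalized counts in Control against 10019.5 and 10698.5 in EDA-A2. Both EDA-A2 libraries were below both Control libraries, by less than the replicates differed among themselves. The log2 fold change was -0.17 with a 95% interval of -0.32 to -0.02, and it did not pass the test (edgeR, unadjusted p = 0.0332, adjusted p = 0.257). Its exons share 1712 bases (15.9%) with the antisense gene Ttc39a, which held 134 to 153 raw counts per library. Itch (ENSMUSG00000027598, chr2:154975388-155069532, plus strand) held 2310 and 2168 normalized counts in Control and 2195 and 2343 in EDA-A2. The groups of Itch overlapped, and its log2 fold change of 0.02 had a 95% interval of -0.14 to 0.17 (edgeR, adjusted p = 0.949).

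Cyld (ENSMUSG00000036712, chr8:89423468-89478574, plus strand) encodes a deubiquitinase that removes chains from TRAF proteins and NEMO and is lost in familial skin tumours. Control libraries held 3988 and 4231 normalized counts and EDA-A2 libraries 5035 and 5338, with means of 4109.8 ± 172 and 5187 ± 214 (SD, n = 2 each). The groups were apart by 2.65 times the larger gap between replicates. The log2 fold change was 0.34 with a standard error of 0.07 and a 95% interval of 0.19 to 0.48 (edgeR, adjusted p = 0.00972), rank 334 by p-value. The adjusted p was 0.149 with no filter on low counts, and it was 0.162 without EDA-A2 replicate 2, 0.301 without Control replicate 1 and 0.195 without Control replicate 2.

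Otud7b (ENSMUSG00000038495, chr3:96011735-96068446, plus strand) encodes Cezanne, an A20-related enzyme that also protects TRAF3 from degradation in the noncanonical pathway. It held 3912 and 3701 normalized counts in Control and 4046 and 3921 in EDA-A2, a difference below the spread of the replicates (log2 fold change 0.07, 95% interval -0.08 to 0.21, edgeR adjusted p = 0.733). Otulin (ENSMUSG00000046034, chr15:27542721-27631297, minus strand) encodes the enzyme that cuts linear chains. It held 559.5 and 550.6 normalized counts in Control and 503.8 and 472.7 in EDA-A2. Both EDA-A2 libraries of Otulin were lower, with a log2 fold change of -0.18 and a 95% interval of -0.40 to 0.03 (edgeR, adjusted p = 0.411). Antisense genes also overlapped exons of Otud7b (Gm17690, 3.02% of their length) and Tax1bp1 (Gm43966, 1.71%, and Jazf1, 0.828%), and Ank overlapped Otulin outside exons. None of these genes was called.

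Both EDA-A2 libraries were above both Control libraries for 6 of the 9 genes and below them for Rnf11 and Otulin, so that the groups of 8 did not overlap. Of all genes tested, 22.8% lay above and 22.2% below in this way, 45% in all. Non-overlap with 2 libraries per group is no call, and of the 9 genes Tnfaip3, Tnip1 and Cyld alone passed the test. When either Control library was left out, edgeR called no gene in the whole table, although 2179 and 2448 genes had an unadjusted p under 0.05, all 3 of these genes among them. The adjusted p was then 0.142 and 0.157 for Tnfaip3 (without Control replicate 1 and 2), 0.185 and 0.157 for Tnip1 and 0.301 and 0.195 for Cyld. DESeq2 called 326 and 509 genes on the same libraries, with Tnfaip3 and Tnip1 among them each time.

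**Figure D3:**
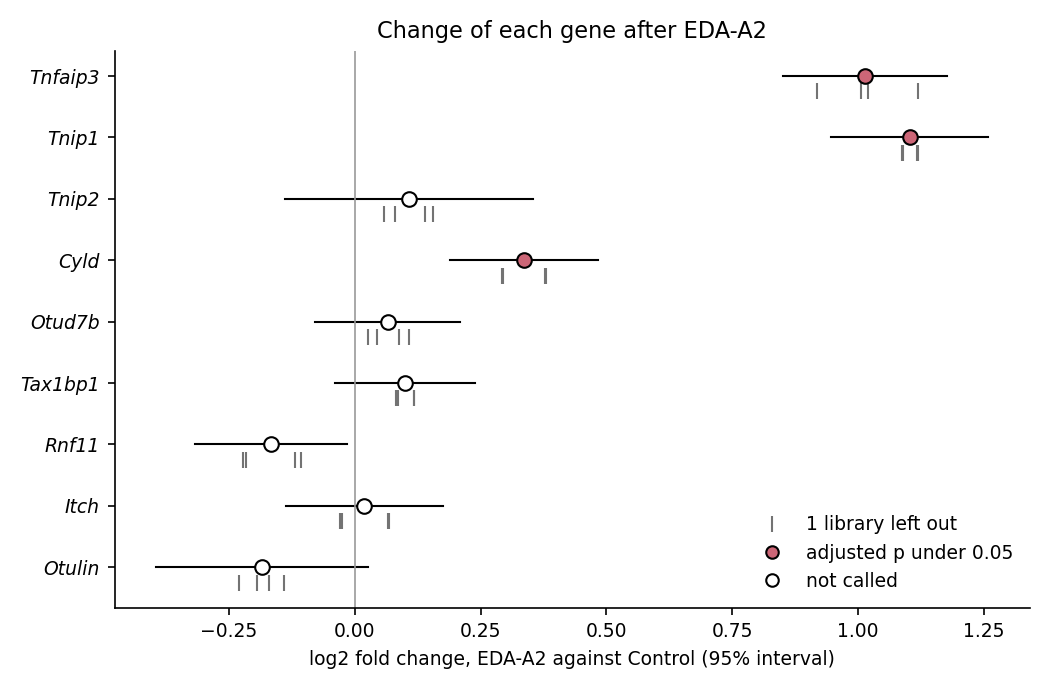
Log2 fold change of each of the 9 genes after EDA-A2 (horizontal axis) with its 95% interval from edgeR, 2 libraries per group, and short vertical marks for the values with 1 library left out. Filled points mark the 3 genes called at an adjusted p under 0.05. Tnfaip3 and Tnip1 lie near 1, Cyld at 0.34, and the others between -0.18 and 0.11.

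Levels were also set side by side per kilobase of annotated exon, a scale on which genes can be compared. In Control the order from high to low, as mean normalized counts per kilobase over 2 libraries, was Rnf11 (1080), Tax1bp1 (432), Otud7b (389), Cyld (305), Tnfaip3 (218), Itch (177), Tnip1 (106), Tnip2 (68.5) and Otulin (43.1). No neighbours in this order overlapped between their libraries. In EDA-A2 the level of Tnfaip3 was 439 per kilobase, above Otud7b (407) and Cyld (385). The level of Tnip1 was 228, above Itch (179). The other gene length given below reverses the order of Tnip1 and Itch and brings Tnfaip3 and Cyld nearly level. Transcripts of the A20 complex partners Rnf11 and Tax1bp1 were above Tnfaip3 in both groups.

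The order depends on the gene length used. With the length of the longest transcript in place of all exons, 5 of the 9 genes kept their place in Control and 3 of 9 in EDA-A2. In EDA-A2 Tnip1 was then below Itch (272 against 338 per kilobase) and Rnf11 below Tax1bp1 (988 against 1120). The means of Tnfaip3 (612) and Cyld (606) were then nearly level, so their order is not settled at this length. Both were above Otud7b (469). Shares and sums were taken per library from normalized counts per kilobase of all exons. Tnfaip3 made up 36.8% and 34.9% of Tnfaip3 and Otud7b together in Control and 51.4% and 52.4% in EDA-A2. Cyld made up 87.2% and 88% of Cyld and Otulin together in Control and 90.5% and 91.5% in EDA-A2. Summed over the 9 genes, this level was 2883 and 2748 in Control and 3137 and 3210 in EDA-A2.

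**Figure D4:**
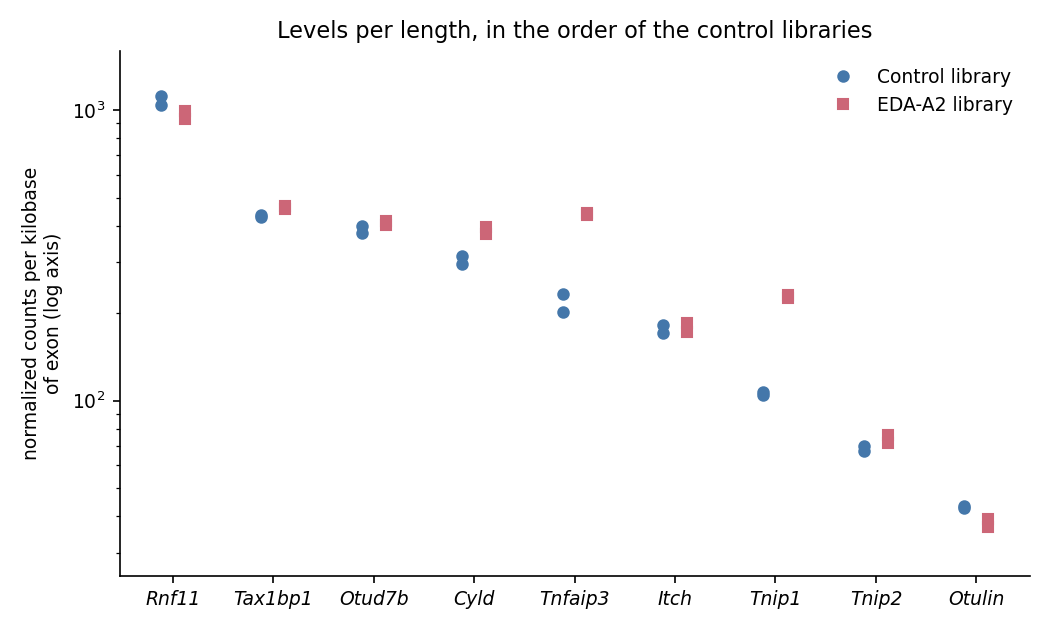
Normalized counts per kilobase of exon of the 9 genes (log axis), ordered by their mean in Control, with 1 point per library. Rnf11 is at the top with about 1000 and Otulin at the bottom with about 40, and Tnfaip3 and Tnip1 are the genes whose EDA-A2 points stand furthest above their Control points.

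The enzymes that build and read the chains were counted from lists grouped by function. These lists, and those below, were chosen with earlier results of these data known, so their counts are no independent observation. Of all genes tested, 2.45% were called higher and 2.13% lower. In the linear ubiquitin machinery, which includes the LUBAC subunits Rnf31, Rbck1 and Sharpin, none of 6 genes was called by edgeR, and the median log2 fold change was -0.0013. Rbck1, the gene of this list with the most counts, had a log2 fold change of -0.01. Among 13 ubiquitin ligases and conjugating enzymes of receptor complexes, 2 rose and none fell (median 0.10). Traf2, the adaptor that recruits ligases to receptors, held 1178 and 1178 normalized counts in Control and 2077 and 2185 in EDA-A2 (log2 fold change 0.86, edgeR adjusted p = 6.69e-06). Birc3, which encodes the ligase cIAP2, held 4 and 3 raw counts in Control and 69 and 54 in EDA-A2 (edgeR, adjusted p = 5.29e-05). Ube2d3, a conjugating enzyme and the gene of the list with the most counts, had a log2 fold change of 0.08 and was not called.

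Among 8 ubiquitin sensors and kinase scaffolds, 1 rose and none fell (median 0.10). Tank, a scaffold of TRAF proteins and TBK1, held 1161 and 1147 normalized counts in Control and 1509 and 1434 in EDA-A2 (log2 fold change 0.35, edgeR adjusted p = 0.0150). That call was lost without any 1 of the libraries and with no filter on low counts. Tab2, a sensor that binds ubiquitin and the list's gene with the most counts, had a log2 fold change of 0.06. Of 13 relatives and partners of the A20 complex, 11 were tested and none was called, Nedd4, a ligase related to Itch and the gene with the most counts, included (0.04).

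Among 22 other deubiquitinases of NFκB and antiviral signalling, none rose and 2 fell, against 2.13% called lower among all genes tested. Otud1, an OTU deubiquitinase, held 1120 and 938.8 normalized counts in Control and 590.1 and 497.3 in EDA-A2, and its log2 fold change was -0.92 (edgeR, adjusted p = 0.000122). Usp2 held 1701 and 2004 in Control and 1286 and 1370.0 in EDA-A2, with a log2 fold change of -0.48 (edgeR, adjusted p = 0.00404). Otud4, the gene of the list with the most counts, had a log2 fold change of 0.02 and was not called. With no filter on low counts neither deubiquitinase was called.

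For scale, the IκB family, which includes feedback inhibitors, and the NFκB subunits were placed beside these genes. Of the 5 IκB genes tested 2 were called higher, and of the 5 subunits 2 were called higher, against 2.45% of all genes tested. Tnfaip3 and Tnip1 had log2 fold changes close to that of the subunit gene Relb (0.99), below those of the inhibitor Nfkbia (1.43) and of Nfkb2 (1.89), and far below that of the inhibitor Nfkbie (3.15). These differences between genes were not tested.

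**Figure D5:**
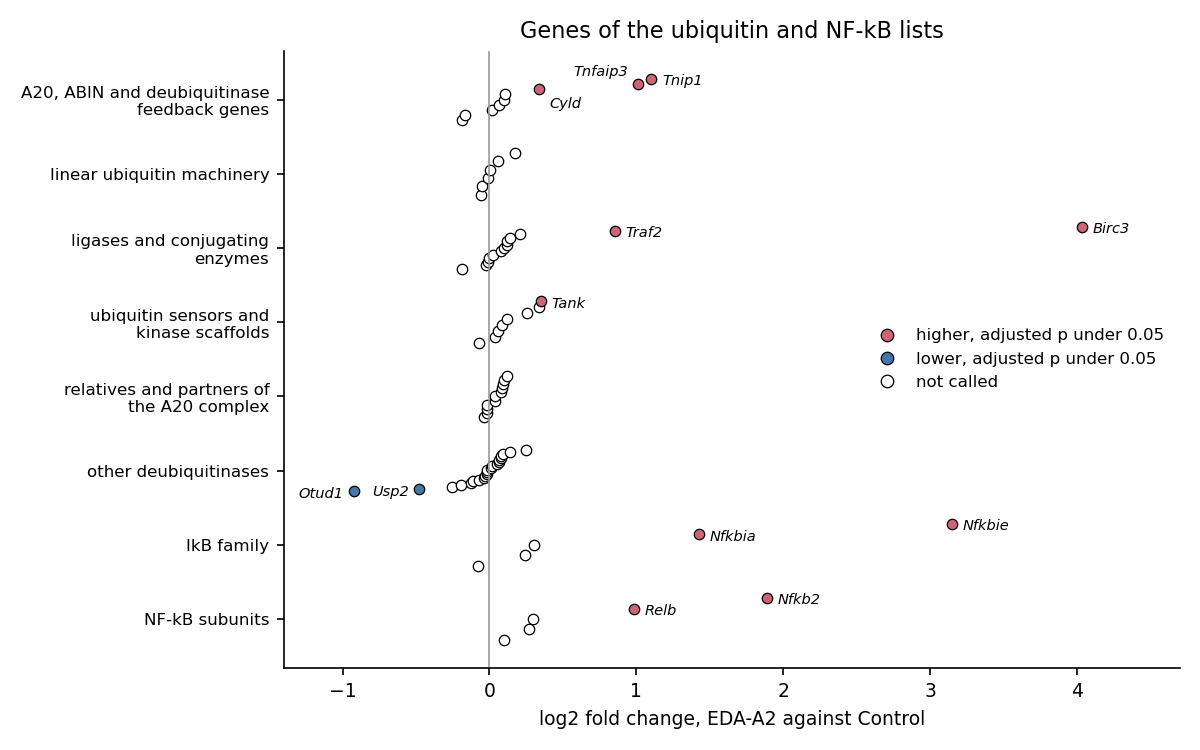
Log2 fold change after EDA-A2 (horizontal axis) of each tested gene, by list (rows), with filled points for genes called by edgeR at an adjusted p under 0.05. The 3 called feedback genes and Traf2, Birc3 and Tank lie right of 0 and Otud1 and Usp2 left of it, and the value of Birc3 rests on 4 and 3 Control counts.

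The genes whose profile over the 4 libraries lay nearest to those called were found by the Euclidean distance of log2 normalized counts, after subtraction of the Control mean, among 14853 genes. Nearest to Tnfaip3 were Abcb1a, a drug efflux pump (distance 0.103), Synpo2, an actin-binding protein of muscle (0.109), and Il2rg, the shared chain of interleukin receptors (0.123). Nearest to Tnip1 were Popdc2, a membrane protein of muscle (0.0742), the transcription factor Irf1 (0.103) and Gm47258 (0.109). Gm47258 was low, with 7.2 and 7.1 normalized counts in Control and 14.7 and 15.7 in EDA-A2, and was not called. Irf1 held 617 and 657 normalized counts in Control and 1363 and 1293 in EDA-A2, a split that its choice by profile brings with it. Nearest to Cyld were D130020L05Rik (0.0204), Scrn2 (0.0218) and the growth factor Tgfb2 (0.0219), none of them called.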

How the data were processed

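Polyadenylated RNA of 4 libraries of mouse primary myotubes was sequenced, 2 per group. The authors deposited 1 table of raw read counts for each library, with Ensembl gene identifiers and no normalization or pooling. The submitters' processing notes name FastQC 0.11.9, MultiQC 1.12, Trim Galore 0.6.5, STAR 2.7.3a, HTSeq 0.11.1 and the GRCm39 build. The annotation release and strand option are not given in the sources used here, so antisense overlaps are stated beside the genes. Summary lines of the counting were left out: 6.68% to 7.4% of pairs were outside genes, 0.946% to 0.986% were ambiguous and 4.56% to 4.76% were not unique.

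Counts were tested in R 4.3.3 with edgeR 4.0.16 (TMM, filterByExpr at min.count 10 and min.total.count 15, glmQLFit, glmQLFTest), group being the only term, on all genes, and p-values were adjusted by Benjamini-Hochberg over 15173 genes at a threshold of 0.05. Standard errors and 95% intervals come from that fit. The steps were tested on simulated data. The replicates of a group differed by more than sampling noise (chi-square per gene 9.33 in Control and 4.45 in EDA-A2). A count of 0 allows up to 3 counts, about 0.0993 to 0.104 CPM, for counting error only.

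The 9 genes and the lists were chosen with earlier results of these data known. Named genes are the 9, the called genes and the gene with the most counts in each list, the 3 nearest profiles (pseudocount 0.5, mean of at least 10) and genes that overlap the 9. Exon lengths come from GENCODE M39, which matched 52610 of 53647 genes. Alternatives were other normalization factors, other filters, the DESeq2 1.42.0 Wald test, a replicate block, another gene length and leaving out each library. Protein sequences were not used here.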

Additional observations from a re-analysis of the deposited data

How the results depend on the processing

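Among settings other than leaving out a library, the calls of Tnfaip3 and Tnip1 held under every one (log2 fold change 1.01 to 1.07 and 1.10 to 1.16). Cyld was not called with no filter on low counts (0.33, adjusted p = 0.149), which left 2 of the 9 genes called. Without a filter 64 genes were called higher and 22 lower, and the counts of 1 for the sensors and of 2 lower for the other deubiquitinases became 0. At least 10 counts in every library left 1 ligase called, since Birc3 is then not tested. With total counts in place of TMM, 194 genes were called lower and 485 higher, against 323 and 371, the median of all genes moved to 0.05 and that of the 9 genes to 0.16. With the longest transcript as length, 5 of the 9 genes kept their place in Control and 3 in EDA-A2.

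Replicate numbers are shared across groups, but the labels name no shared culture or day and the deviations of libraries with the same number correlated at 0.0566 only. A replicate block called 1066 genes, 537 higher and 529 lower, against 694, and the count among the 9 genes remained 3.

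Leaving out 1 library in edgeR gave log2 fold changes of 0.92 to 1.12 for Tnfaip3, 1.09 to 1.12 for Tnip1, 0.29 to 0.38 for Cyld and -0.0302 to 0.0672 for Itch, which changed sign. It gave 0 to 3 of the 9 genes called, 0 to 238 genes higher and 0 to 170 lower, 0 to 2 ligases, 0 sensors, 0 to 2 other deubiquitinases lower, 0 to 2 IκB genes, 0 to 2 subunits and a median over the 9 genes of 0.0663 to 0.12. DESeq2 on the same libraries, chosen after seeing the data, gave 0.91 to 1.12 for Tnfaip3, 1.09 to 1.12 for Tnip1, 0.29 to 0.38 for Cyld, -0.0286 and -0.0308 for Itch without Control or EDA-A2 replicate 2, and a lowest median of 0.0658. It called 178 genes higher and 148 lower when Control replicate 1 was dropped, 243 and 266 for Control replicate 2, 73 and 40 for EDA-A2 replicate 1, and 70 and 54 for EDA-A2 replicate 2, with 1 to 2 ligases, 0 sensors and 1 to 2 other deubiquitinases. The lone library of a group is assumed to vary like the other group. Apart from that of the sensors, the counts of 0 arose in edgeR without a Control library, when 2179 and 2448 genes had an unadjusted p under 0.05 and DESeq2 called 326 and 509. Cyld lost its call without EDA-A2 replicate 2 in edgeR and in 3 of 4 such fits in DESeq2. With 2 libraries per group, small changes of low genes such as Tnip2 and Otulin are beyond what these intervals resolve.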
